A study of Homo sapiens with 3 samples.

Results

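The genes described here encode the SR proteins, the U2 particle factors SF3A and SF3B, the core proteins of the spliceosomal particles and the hnRNP proteins, which together carry out and steer the removal of introns from pre-mRNA. Members were all probe sets whose single annotated symbol was SRSF with a number or began with SF3A, SF3B, SNRP or HNRNP. That gave 105 probe sets for 46 genes, out of 22277 sets on the array, of which 19070 had a single gene symbol. The only matching pseudogene, HNRNPA3P1, was left out with its 1 set, and 19 further sets were not used because their annotation listed a matching symbol beside others. The members comprised 26 sets for 9 SR protein genes, 15 sets for 8 SF3A and SF3B genes, 16 sets for 11 SNRP genes and 48 sets for 18 hnRNP genes.

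HEK293T cells, a line from human embryonic kidney with the SV40 large T antigen, were transfected with dCas9VP160, a Cas9 without nuclease activity fused to the VP160 activator, together with guide RNA. The control array had sgTetOmut, a mutated and non-targeting form of sgTetO. The second array had sgTetO, whose labelled target is the TetO promoter, and the third had sgIL1RN1~3, aimed at the promoter of IL1RN, the interleukin-1 receptor antagonist gene. All groups thus shared the cell line, the activator and the transfection, none was left untransfected, and each was 1 array of total RNA. There was no replicate in any group, so no test between conditions could be made and every difference below is a difference between single arrays. The number of arrays limits the precision.

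Splicing starts when the U1 particle pairs with the start of an intron and the U2 particle with its branch site. The Sm proteins, products of SNRPB, SNRPD1, SNRPD2, SNRPD3, SNRPE, SNRPF and SNRPG, form the ring around the small nuclear RNAs, while SF3A and SF3B are the U2 subcomplexes that hold the branch site. SR proteins bind exonic enhancers through RNA recognition motifs and recruit the machinery through domains rich in arginine and serine. The hnRNP proteins coat nascent transcripts and often oppose exon inclusion. Many SR and hnRNP genes regulate their own messages through exons that trigger decay, so that one gene yields several transcripts, and several of these genes have close paralogs or processed pseudogenes.

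By the median, the windows upstream of these genes held somewhat more CpG than those of genes named on the array, but not more GC. Promoter sequences from RefSeq (GRCh38.p14) were found for 43 of the 46 genes, and not for HNRNPA1, SF3B3 and SNRPD1. Over the 250 bases before the annotated start, the median member held 23 CpG dinucleotides, against 19 over 9562 genes named on the array and 11 over all 27305 promoters of the table. The median GC content was 61.6% for members, 63.6% for the array genes and 58% for all promoters. The count ran from 2 for SRSF8, an intronless gene that arose as a retrotransposed copy of a related SR gene, and 8 for HNRNPH1 to 38 for SF3A1. The motif TATAAA or its reverse complement TTTATA stood in 6 of 43 member windows (14%), 7.93% of array genes and 11.1% of all promoters. CCAAT or ATTGG stood in 18 (41.9%), 35.6% and 33%, and GGGCGG or CCGCCC in 25 (58.1%), 60.6% and 42.3%, and no motif contained another. The windows of 3 genes are printed, with each CpG in capitals: SF3A1, which had the probe set furthest above both controls with the IL1RN guides, SRSF10, which had the set furthest below among genes with an entry, and SRSF8, the exception in base composition.
SF3A1, chr22:30356895-30357144, minus strand: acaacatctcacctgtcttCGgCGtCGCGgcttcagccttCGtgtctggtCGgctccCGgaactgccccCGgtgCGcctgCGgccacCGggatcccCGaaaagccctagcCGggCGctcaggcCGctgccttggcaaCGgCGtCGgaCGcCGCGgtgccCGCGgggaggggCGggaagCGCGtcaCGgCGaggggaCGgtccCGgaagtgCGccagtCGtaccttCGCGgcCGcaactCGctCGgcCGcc
SRSF10, chr1:23980328-23980577, minus strand: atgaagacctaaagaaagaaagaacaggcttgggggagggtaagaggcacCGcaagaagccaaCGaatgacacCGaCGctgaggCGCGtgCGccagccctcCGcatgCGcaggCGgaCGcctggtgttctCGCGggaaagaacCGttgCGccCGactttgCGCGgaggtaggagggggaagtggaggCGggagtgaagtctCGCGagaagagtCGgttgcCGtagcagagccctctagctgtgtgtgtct
SRSF8, chr11:95066627-95066876, plus strand: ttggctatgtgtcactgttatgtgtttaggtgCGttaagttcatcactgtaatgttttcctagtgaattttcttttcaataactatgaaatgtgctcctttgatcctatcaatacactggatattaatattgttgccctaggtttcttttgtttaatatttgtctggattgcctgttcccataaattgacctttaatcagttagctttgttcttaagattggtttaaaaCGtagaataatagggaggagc
At least 38 CpG, as for SF3A1, were present in 3.16% of all promoters, at least 23, as for SRSF10, in 25.4%, and at most 2, as for SRSF8, in 23.6%. GC content was 73.2%, 61.2% and 33.6%. These matches describe the sequence, and no binding was measured.

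The values are log2 expression values as deposited, so a difference of 1 is 2-fold. A set was taken as above background on an array when it exceeded the brightest of the 27 control sets for Bacillus subtilis transcripts, 3.29 on sgTetOmut and 3.40 on each other array. Differences were counted for sets whose mean over the 3 arrays reached 5.48, the median of the 19070 singly named sets, which 9535 sets and 97 of the 105 member sets did. The nearest member below that level was HNRNPH1 213472_at with a mean of 4.49, and the nearest above it SRSF6 206108_s_at with 5.55. A set was called on an array when it lay at least 1.5-fold (0.58 log2 units) above, or below, both other arrays. As a check of the labelled line, all 8 marker genes listed for HEK293T, among them NEFL, NEFM, VIM and PAX2, were above background on every array, although KRT8 stayed under the minimum level at a mean of 4.07. Of the lists for other cell types, 3 of 6 blood and endothelium markers, 5 of 6 fibroblast and muscle markers and 1 of 3 liver markers were also above background on every array. COL1A1 and COL3A1 of the fibroblast list had means of 7.17 and 7.13, above KRT18, INA and PAX2 of the line list, while PTPRC, CD3E, DCN and ALB were above background on none. The summed log2 level of the 8 line markers was 60.5 on sgTetOmut, 60.0 on sgTetO and 62.0 on sgIL1RN1~3.

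Nearly every splicing gene gave a bright signal on all 3 arrays. Of the 105 member sets, 100 were above background on every array, against 70.6% of all singly named sets, and 83 had a mean in the top 25% of those sets. The brightest set of a gene lay in that top share for 44 of 46 genes (95.7%), above 10 for 31 (67.4%) and above 12 for 14 (30.4%). Over the brightest sets of all 11963 named genes these shares were 31.3%, 14.7% and 2.89%, although 65.2% of member genes and 36% of all genes had several sets to take the brightest from. The 2 exceptions were HNRNPF, an hnRNP that binds G-rich RNA, whose only set read 7.29, 7.32 and 7.36 on sgTetOmut, sgTetO and sgIL1RN1~3, the order used throughout, and HNRNPUL2, whose only set read 5.78, 5.86 and 6.26. How bright a set is depends on its probes as well as on the transcript, so sets are not ranked here as amounts of RNA, and fewer expressing cells cannot be told apart from less RNA per cell.

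**Figure D1:**
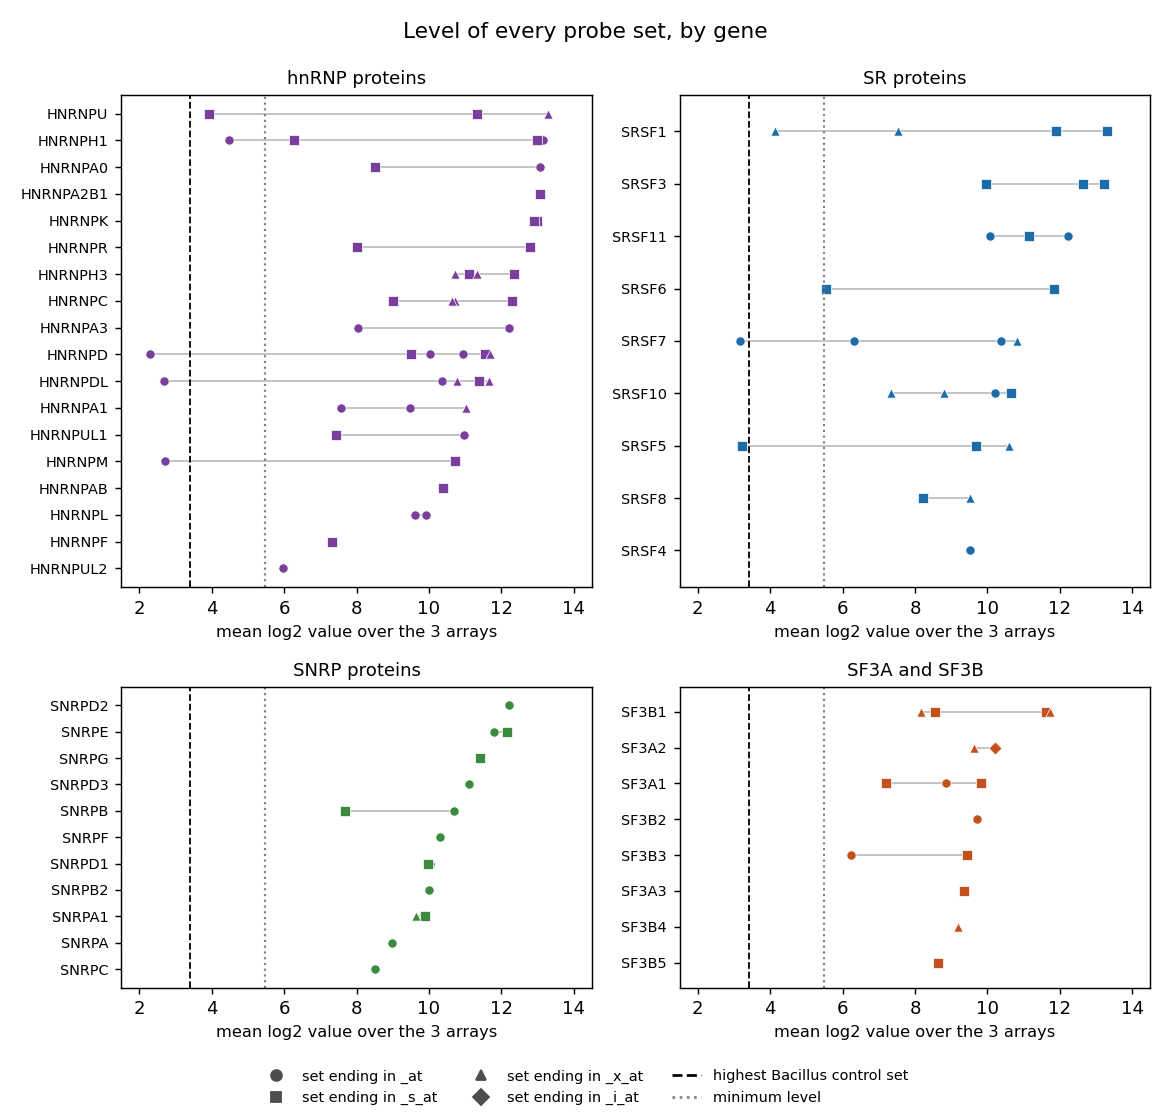
Mean log2 value over the 3 arrays (horizontal axis) of each of the 105 probe sets, 1 row per gene in 4 families; a grey line joins the sets of a gene, the marker shape gives the ending of the set's name, the dashed line is the highest Bacillus control value and the dotted line the minimum level of 5.48. Most genes have a set above 10, while sets of one gene, such as HNRNPU or SRSF1, can lie over 9 log2 units apart.

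Among the SR proteins, SRSF1, a founding member that also promotes weak splice sites, had its brightest set at 13.28, 13.31 and 13.33. SRSF3, the smallest family member and an mRNA export adaptor, read 13.23, 13.22 and 13.17. Those 2 sets differed by less than 0.1 between any arrays. SRSF11 had a brightest mean of 12.21, SRSF6 of 11.84, SRSF7, which has a zinc knuckle beside its RNA recognition motif, of 10.82, SRSF10, which acts as a repressor when dephosphorylated, of 10.65, SRSF5 of 10.60, SRSF8 of 9.52 and SRSF4 of 9.52.

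For the U2 factors the brightest set of SF3B1, the large scaffold subunit that is often mutated in blood cancers, read 11.73, 11.76 and 11.68. SF3A2 had a mean of 10.22, SF3A1 of 9.81, SF3B2 of 9.72, SF3B3 of 9.43, SF3A3 of 9.35, SF3B4 of 9.18 and SF3B5 of 8.62. All 15 SF3A and SF3B sets were above background on all arrays and reached the minimum level.

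The particle proteins were bright as well. The Sm genes had brightest means of 12.20 (SNRPD2), 12.15 (SNRPE), 11.40 (SNRPG), 11.11 (SNRPD3), 10.69 (SNRPB), 10.30 (SNRPF) and 10.02 (SNRPD1). The U2 proteins SNRPB2 and SNRPA1 had 9.99 and 9.90, and the U1 proteins SNRPA and SNRPC had 8.98 and 8.51. Each of the 16 SNRP sets was above background on every array.

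The hnRNP genes held the widest range. HNRNPU, a scaffold protein of nuclear RNA and chromatin, had a brightest mean of 13.27, HNRNPH1 of 13.15, HNRNPA0 of 13.08, HNRNPA2B1 of 13.05, HNRNPK, which binds C-rich RNA, of 12.97, HNRNPR of 12.79, HNRNPH3 of 12.35, HNRNPC, which binds U-rich tracts, of 12.29 and HNRNPA3 of 12.20. HNRNPD, which also controls the decay of AU-rich messages, had 11.69, HNRNPDL 11.66, HNRNPA1, a repressor of exon inclusion, 11.03, HNRNPUL1 10.97, HNRNPM 10.73, HNRNPAB 10.39 and HNRNPL, which binds CA repeats, 9.92. Of the 48 sets, 45 were above background on every array and 3 on none.

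Probe sets of the same gene disagreed widely in level. Of the 46 genes, 16 had 1 set and 30 had 2 to 6. In 24 of those 30 the brightest and dimmest sets lay at least 2-fold apart, against 74.2% of the 4310 named genes with several sets, and in 22 at least 4-fold, against 55.3%. The median gap was 3.39 log2 units over the 30 member genes and 2.34 over all such genes. Gaps grow with the number of sets: member genes with 2, 3 and 4 or more sets had medians of 3.00, 3.36 and 7.65, and all named genes 1.58, 3.34 and 4.22.

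The widest gap was at HNRNPD, whose 6 sets had means from 2.29 to 11.69. Its lowest set, 205183_at, was above background on no array, as were HNRNPDL 214379_at, HNRNPM 214918_at and SRSF7 211439_at, so their genes' gaps of 9.40, 8.97, 8.01 and 7.65 log2 units are measured against background and no fold is given. SRSF7 211439_at held exactly the same value, 3.17, on all 3 arrays. SRSF5 210077_s_at, at 3.44, 2.96 and 3.29, was above background on sgTetOmut alone.

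Where both ends were above background the gaps were still large. The 3 HNRNPU sets had means of 13.27, 11.32 and 3.94, a range of 9.33 log2 units (645-fold). SRSF1 spanned 9.19 (582-fold) over 4 sets with means of 13.31, 11.89, 7.52 and 4.12, and HNRNPH1 spanned 8.66 (405-fold). The lowest sets of these 3 genes were below the median of all named sets but above background on every array.

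Other genes had sets that agreed closely. The 2 sets of SNRPD1 differed by 0.04 log2 units in mean level, those of HNRNPK by 0.09, the 3 of SNRPA1 by 0.25, and those of HNRNPL and SNRPE by 0.31 and 0.35. SF3A2 followed with 0.58. In 6 of 30 genes, those named here, all sets lay within 2-fold.

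Differences between arrays were mostly small. Of 97 member sets at the minimum level, 75 differed by less than 0.25 log2 units between sgIL1RN1~3 and the mean of the controls, and 91 did between the 2 controls. Most of all 9535 sets did so too, 6968 and 8548 of them. The median size of the difference was 0.11 for sgIL1RN1~3 against the controls and 0.08 between the controls, against 0.14 and 0.09 over all 9535 sets.

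A single member set was called above both controls with the IL1RN guides and a single set below, 1 of 97 each, against 0.996% and 0.797% of all sets, so both counts were near the background. At a lower limit of 0.32 log2 units, 2 were above, SF3A1 201357_s_at and HNRNPUL2 222264_at, and 3 below, HNRNPA1 222040_at, SRSF10 206095_s_at and HNRNPD 221480_at, against 6.7% and 5.25% of all sets, and 1, HNRNPC 200751_s_at, was below both others on sgTetO, against 2.06%. At 1.5-fold, on sgTetO and on sgTetOmut no member set was called in either direction; the background was 0.042% above and 0.0839% below both others on sgTetO, and 0.524% and 0.0105% on sgTetOmut.

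The set above was 201357_s_at of SF3A1, the SF3A subunit that contacts U1 as well as U2. It read 6.99, 6.79 and 7.81, so that both controls lay together and the third array apart. The difference was 1.02 log2 units (2.02-fold) from sgTetO and 0.82 (1.76-fold) from sgTetOmut. The brighter sets of the gene did not pass the limit. Set 216457_s_at read 9.77, 9.68 and 9.98, a difference of 0.31 and 0.22 from sgTetO and sgTetOmut, and 201356_at read 8.83, 8.79 and 8.96, a difference of 0.17 and 0.12. All 3 were thus highest on sgIL1RN1~3, and the dimmest set differed most.

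The set below was 222040_at of HNRNPA1. It read 9.63, 9.84 and 8.94, and was lower by 0.90 log2 units (1.86-fold) than on sgTetO and by 0.69 (1.61-fold) than on sgTetOmut. The brightest set, 214280_x_at, read 10.98, 11.15 and 10.95, and 221919_at read 7.51, 7.79 and 7.37. Each of the 3 sets was lowest on sgIL1RN1~3 and highest on sgTetO, but in 214280_x_at the array with the IL1RN guides lay within 0.02 of sgTetOmut.

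**Figure D2:**
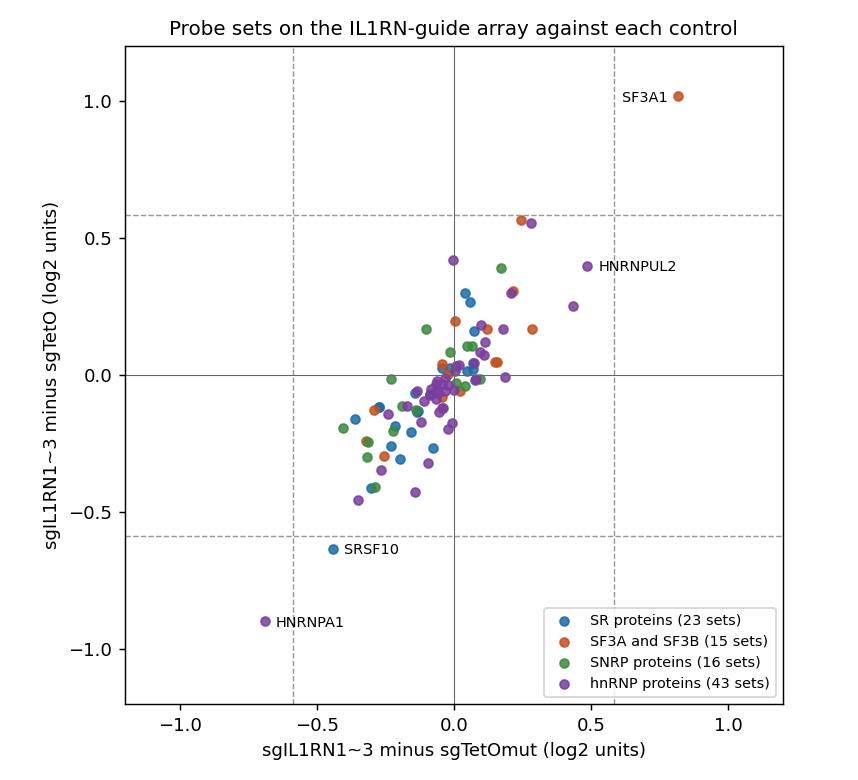
Difference of the sgIL1RN1~3 array from sgTetOmut (horizontal) and from sgTetO (vertical), in log2 units, for the 97 member sets at the minimum level, coloured by family; dashed lines mark 1.5-fold. Of the 97 points, 1 lies past both limits at the upper right (SF3A1) and 1 at the lower left (HNRNPA1), and both axes share the sgIL1RN1~3 array.

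The chip's own control sets along the transcripts of ACTB and GAPDH, which track how far labelling reached from the 3' end, also stood apart on sgIL1RN1~3. The 5' set of ACTB read 7.61, 7.48 and 8.43 and the middle set 10.01, 9.96 and 10.65, while the 3' set read 13.34, 13.34 and 13.41. For GAPDH the 5' set read 9.17, 8.99 and 9.83, the middle set 10.52, 10.48 and 11.06 and the 3' set 11.87, 11.92 and 11.91. The 5' sets were 0.66 to 0.95 higher on sgIL1RN1~3, beside 0.82 and 1.02 for the SF3A1 set. Their part in that result was not tested.

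The next members above the averaged controls fell short of the limit. HNRNPUL2 222264_at, the only set of the gene, was 0.40 and 0.49 above sgTetO and sgTetOmut. HNRNPR 208765_s_at read 7.72 on sgTetO and 8.28 on sgIL1RN1~3, which is 0.56 higher, but it was only 0.28 above sgTetOmut, and SF3B5 221263_s_at read 8.65, 8.33 and 8.89, or 0.56 and 0.25. In both of these the controls differed from each other by a comparable amount, with sgTetO lower by 0.28 and 0.32. HNRNPL 202072_at was 0.25 and 0.43 higher, and SNRPB 213175_s_at 0.39 and 0.17 higher.

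Below the mean of both controls after HNRNPA1 came SRSF10 206095_s_at at 10.73, 10.92 and 10.29, lower by 0.63 than sgTetO (1.55-fold) and by 0.44 than sgTetOmut (1.36-fold). HNRNPD 221480_at was lower by 0.46 and 0.35, SRSF4 201696_at by 0.41 and 0.30, SNRPA1 206055_s_at by 0.41 and 0.29, and SNRPG 205644_s_at by 0.30 and 0.32. Against sgTetO alone 2 of 97 sets were at least 1.5-fold lower (1.78% of all sets were), HNRNPA1 222040_at and SRSF10 206095_s_at, and 1, SF3A1 201357_s_at, was higher (2.71%). Against sgTetOmut alone, HNRNPA1 222040_at was the 1 set lower (1.63% of all sets) and SF3A1 201357_s_at the 1 higher (1.33%).

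By family, SR protein sets lay lower on sgIL1RN1~3. Averaging the controls, the median difference was -0.13 over 23 sets, against 0.01 over all 9535, and it lay between -0.12 and -0.14 under the other scalings. It was -0.12 relative to sgTetO and -0.13 relative to sgTetOmut. Without the sets ending in _x_at, some of whose probes also match other sequences, 17 SR sets were left and these medians were -0.10 for the averaged controls, -0.06 for sgTetO and -0.08 for sgTetOmut. Of the 23, 15 were below both controls by any amount and 6 above, against 36.4% and 41.1% of all sets. All sets of SRSF10 (4), SRSF11 (3) and SRSF6 (2) at the minimum level were below both controls, as was the only set of SRSF4, while both sets of SRSF8 were above. The share of all named genes with every set on one side of both controls was not counted. The SRSF11 sets read 12.28, 12.31 and 12.05, 11.18, 11.23 and 11.02, and 10.26, 10.06 and 9.90, so that no SRSF11 set was lower by more than 0.36 than on either control.

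The hnRNP sets had a median of -0.04, with 26 of 43 below both controls and 13 above. Over all sets 36.4% were below and 41.1% above, which is the background for each family in this paragraph. Several of these sets share a gene. By gene, 7 of 18 hnRNP genes had every set at the minimum level below both controls, and 4 had every set above. All sets at the minimum level were below both for HNRNPA1 (3), HNRNPD (5), HNRNPDL (4), HNRNPH3 (4) and HNRNPU (2), in the last by under 0.1. For this too, the share over all named genes was not counted. SNRP sets had a median of -0.07, with 8 of 16 below and 3 above. SF3A and SF3B sets had 0.10, with 4 of 15 below and 8 above, but only 0.05 relative to sgTetO and 0.02 relative to sgTetOmut, and 0.06 against the averaged controls under quantile scaling, with 5 below and 6 above. All 3 SF3A1 sets and both SF3B3 sets were above both controls, and both SF3A2 sets below. These family medians kept their sign under quantile and cyclic loess scaling and with 16 added to the linear values, and each was smaller in size than 0.15 log2 units. The median over all sets did not keep its sign, going from 0.01 to -0.006 under both quantile and cyclic loess scaling. For all members the median was -0.04, with 53 of 97 (54.6%) below both controls and 30 (30.9%) above, against 36.4% and 41.1% of all sets. With 1 value per gene that median was -0.05 for the brightest set and -0.001 for the mean of all sets.

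Sets of one gene were compared for the difference between arrays as well as for level. For each of the 29 genes with several sets at the minimum level, the spread was taken as the highest minus the lowest difference between sgIL1RN1~3 and the averaged controls. Its median was 0.18 log2 units, against 0.21 over 1909 named genes, and for sgTetO minus sgTetOmut it was 0.15 against 0.14. All sets of a gene lay on one side of 0 in 19 of 29 genes (65.5%) and on both sides in 10, against 56.5% of all such genes on one side. The spread reached 1.5-fold in 2 of 29 member genes, SF3A1 and HNRNPA1, against 7.91%. The median spread was larger than 0.11, the median size of the difference itself. Over all named genes and sets 0.21 likewise exceeded 0.14, and a range over several sets is not the same measure as 1 difference.

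Spreads were 0.77 for SF3A1, 0.68 for HNRNPA1, 0.56 for SNRPB, 0.43 for SNRPA1, 0.41 for HNRNPR and 0.40 for HNRNPC. The SNRPB sets pointed in opposite directions: 208821_at read 10.82, 10.75 and 10.50, below both controls, and 213175_s_at read 7.71, 7.49 and 7.88, above both. In SNRPA1 the set 206055_s_at read 9.95, 10.07 and 9.67, whereas 215722_s_at read 9.87, 9.83 and 9.93 and 216977_x_at 9.68, 9.58 and 9.67. The brightest SNRPA1 set on the controls was thus no longer the brightest on sgIL1RN1~3.

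HNRNPR and HNRNPC show the pattern in genes with one dim set. HNRNPR 208766_s_at read 12.80, 12.79 and 12.80, nearly flat beside 208765_s_at. Of the HNRNPC sets, 200014_s_at read 12.37, 12.31 and 12.20, 212626_x_at read 10.82, 10.72 and 10.58 and 214737_x_at read 10.68, 10.65 and 10.60, all lowest on sgIL1RN1~3. The dimmest, 200751_s_at, read 9.16, 8.74 and 9.16 and was instead lowest on sgTetO. At the other end, the 2 HNRNPU sets differed by 0.002 log2 units in this measure, those of SF3B3 by 0.004, those of HNRNPUL1 by 0.03, and the 4 HNRNPH3 sets by 0.06.

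**Figure D3:**
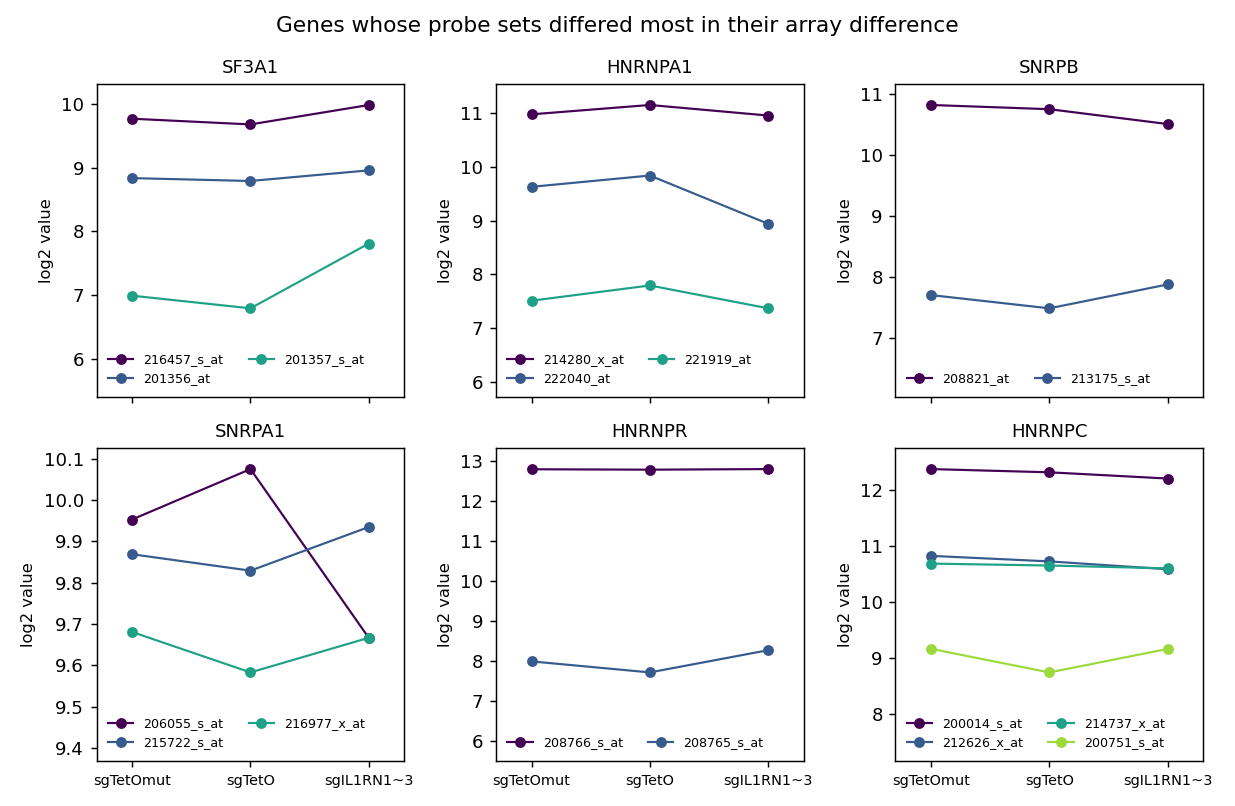
Log2 value on each array of the probe sets at the minimum level for the 6 member genes with the widest spread of array differences, 1 line per set and 1 array per point, each panel with its own vertical scale. In SF3A1 and HNRNPA1 a single set departs furthest on sgIL1RN1~3 while the other sets go the same way by less. In SNRPB the 2 sets go opposite ways, and the SNRPA1 panel spans only about 0.5 log2 units.

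Dimmer sets differed a little more. The 30 brightest sets of genes with several had a median size of difference of 0.10 between sgIL1RN1~3 and the controls and 0.04 between the controls. For the 51 other sets at the minimum level these were 0.14 and 0.08. Between the controls, all 30 brightest sets differed by less than 0.25 log2 units.

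**Figure D4:**
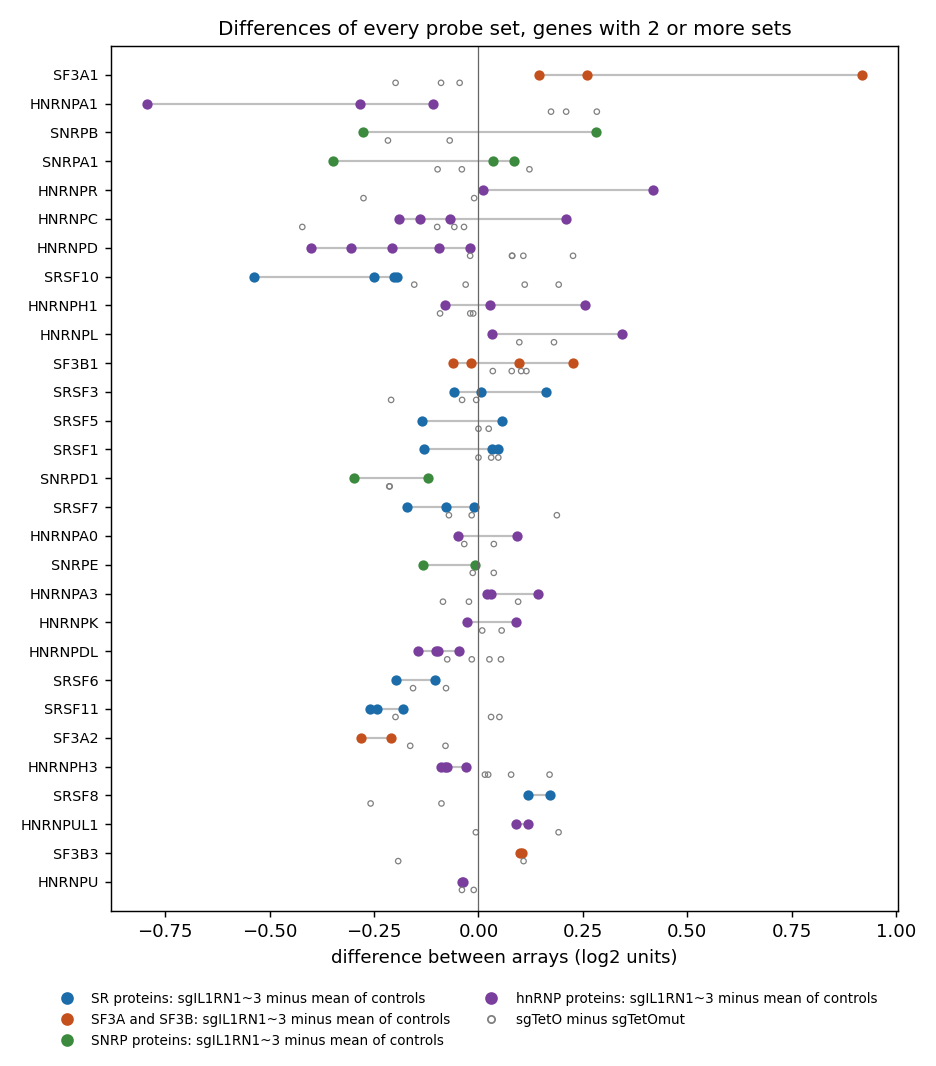
Difference of sgIL1RN1~3 from the averaged controls (filled points, coloured by family) and of sgTetO from sgTetOmut (open points), in log2 units, for each set at the minimum level of the 29 genes with several such sets, ordered by the spread of the filled points. SF3A1 and HNRNPA1 at the top spread by 0.77 and 0.68, and the HNRNPU sets at the bottom coincide.

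Between the 2 control arrays the splicing genes differed little, as did most sets on the array. The median size of the difference was 0.08 for members and 0.09 over all 9535 sets. Over the 97 sets, sgTetO minus sgTetOmut ran from -0.42 to 0.28 with a median of -0.01, which became 0.03 under quantile and 0.02 under cyclic loess scaling. No set was 1.5-fold apart, against 0.776% of all sets lower and 0.0944% higher with sgTetO. With shares that low, none among 97 sets is near the background. The lowest were HNRNPC 200751_s_at at -0.42, SF3B5 221263_s_at at -0.32, HNRNPR 208765_s_at at -0.28 and SNRPD2 200826_at, which read 12.32, 12.05 and 12.22, at -0.27. The highest were HNRNPA1 221919_at at 0.28, HNRNPD 213359_at at 0.23, HNRNPA1 222040_at at 0.21 and SRSF10 206095_s_at at 0.19. On the same pair of arrays 8 interferon response genes, among them IFIT1, OAS1 and RSAD2, had a median of -2.41. These 8 were listed because they differ between the control arrays, so their median is no independent comparison. MX1 among them read 4.03 and 3.53, a difference of -0.50.

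Few sets were called among other genes of the splicing machinery, which were listed with earlier results of these data known. Of 115 listed genes outside the families, 97 were measured by 207 sets, and 172 sets reached the minimum level. Their median difference of sgIL1RN1~3 from the mean of the controls was -0.00. With the IL1RN guides 4 of the 172 (2.33%) were called above both controls, against 0.996% of all sets, and none below, against 0.797%. With calls this rare, both counts are too small to show a direction. Of these 4, DHX9 212107_s_at lay under the minimum level on both controls. Its mean reached that level only through sgIL1RN1~3, the array on which it was called. The count of 4 became 3 with 16 added to the linear values, 1 with the brightest set per gene and 7 with no minimum level. At the lower limit of 0.32 log2 units, 20 (11.6%) were above and 8 (4.65%) below, against 6.7% and 5.25%. The 4 were RBM8A 217857_s_at, of the exon junction complex, at 7.98, 7.81 and 8.69, DHX9 212107_s_at, an RNA helicase, at 5.32, 5.19 and 6.01, DHX16 203694_s_at, a spliceosomal helicase, at 7.58, 7.51 and 8.26, and NONO 208698_s_at, a paraspeckle protein, at 8.46, 8.50 and 9.13.

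The brightest sets of RBM8A, DHX9 and NONO differed less, as for SF3A1. RBM8A 213852_at read 11.31, 11.60 and 11.55, DHX9 202420_s_at read 9.25, 9.22 and 9.62, and NONO 200057_s_at read 13.26, 13.21 and 13.26. The third NONO set, 210470_x_at, was likewise brighter than the called one but read 8.85, 8.83 and 9.43, a difference of 0.60 and 0.57 from sgTetO and sgTetOmut that was nearly as large as the 0.64 and 0.68 of the called set. DHX16 had no further set. RBM8A 217856_at, the other set among the 5 furthest above, read 7.71, 8.16 and 8.57. Furthest below the mean of the controls were KHSRP 204372_s_at, of an RNA decay and splicing factor, at 12.41, 12.32 and 11.76, TRA2A 213593_s_at, of an SR-like activator, at 6.00, 5.99 and 5.42, 2 sets of SFPQ, the partner of NONO, 221768_at at 8.86, 9.15 and 8.48 and 214016_s_at at 12.18, 12.39 and 11.79, and SYNCRIP 217833_at, an hnRNP-like protein, at 10.20, 10.28 and 9.77. Here too the brightest sets of TRA2A, SFPQ and SYNCRIP differed from each control by at most 0.05, at 11.26, 11.28 and 11.23, at 12.67, 12.64 and 12.67, and at 11.66, 11.66 and 11.64. In KHSRP the brightest set was itself the one below.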

How the data were processed

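Total RNA of 3 transfected HEK293T cultures was measured on 1 single-channel array each. The authors deposited log2 values. They used affy, per the submitters' processing notes, and how background, normalization and summary were handled is not given in the sources used here. That the unit is log2 was read from the values, which run from 1.36 to 14.5. Gene names came from GEO's platform annotation, and all 105 member sets matched the GRCh38.p14 gene table by identifier and symbol. No detection calls were used. The members and lists were chosen with earlier results of these data known. Sets named with values were those called on any array, the 6 highest and 6 lowest differences of sgIL1RN1~3 from the controls, the 4 highest and lowest between controls, the 6 widest gaps in level and in difference, each gene's brightest set, and the 5 highest and lowest of the other splicing genes. As alternatives, arrays were rescaled by quantiles or cyclic loess with limma 3.58.1 in R 4.3.3, and other trials had 16 added to the linear values, other limits, minimum levels, references, suffixes and 1 value per gene. Other steps used Python 3.11.15, numpy 2.4.6 and pandas 2.3.3. Counting was tested on simulated data.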

Additional observations from a re-analysis of the deposited data

How the results depend on the processing

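No paired analysis was possible because each group held 1 array. Of 79 alternatives of counts, 64 stayed within a ratio of 1.5. A count of 0 that stayed at 0 was taken as within, although 0 has no ratio. Nearly all alternatives of the member counts on sgTetO and sgTetOmut were of this kind. At a higher limit or with fewer sets a count of 0 could not rise, so these 64 say little about stability. The median differences lay near 0: sgTetO minus sgTetOmut over members went from -0.01 to 0.03 with quantile scaling, 0.02 with cyclic loess and 0.004 with the brightest set per gene, and sgIL1RN1~3 minus the averaged controls shrank from -0.04 to -0.001 with the mean of all sets. At a limit of 2-fold, no member set was above both controls on sgIL1RN1~3 (0) and none below (0). No member gene had a spread of differences that wide (0), and none of the other splicing sets was above (0). At a limit of 0.32 log2 units, 2 member sets were above and 3 below both controls, 1 was below both others on sgTetO, and the other splicing genes had 20 above and 8 below, with 6.7% above and 5.25% below on sgIL1RN1~3 and 2.06% below on sgTetO among all sets. Without sets ending in _x_at, 1 gene in place of 2 had a spread of differences of at least 1.5-fold, since HNRNPA1 lost its brightest. The median gap in level, 3.39, became 3.22 without those sets, 3.30 with 16 added to the linear values and 3.19 with the highest Bacillus set as minimum. The 4 other splicing sets above both controls became 7 with that minimum, 7 with none, 1 with the brightest set per gene and 1 with the mean of all sets, and cyclic loess scaling put 1 set below. Of 80 alternatives of single member sets, 56 moved by less than 0.078 log2 units, the median size of the difference between the control arrays, and 24 by more, 22 of them with a single control as reference. Against sgTetOmut alone HNRNPC 200751_s_at turned from 0.21 to -0.00 and SNRPD2 200826_at from 0.03 to -0.10. Sets near background, without detection calls, limit what the dimmest values show.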

Other observations

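Member sets whose names end in _x_at, some of whose probes also match other sequences, leaned lower on the array with the IL1RN guides. This grouping was chosen after the values were seen. Of 20 such sets at the minimum level, 17 lay below the mean of both controls, with a median of -0.10, while 409 of 932 did among all named sets with this ending, with a median of 0.02. Member sets ending in _s_at were even, 22 below and 22 above, and of those ending in plain _at 19 were below and 13 above. The 17 included sets of HNRNPC, HNRNPD, HNRNPDL, SRSF1 and SRSF10, and also of the U2 factors SF3A2, SF3B1 and SF3B4. Lowest were SF3A2 209381_x_at at -0.28 and SF3B4 209044_x_at at -0.27. The 20 sets came from 15 genes. The 3 above were 201070_x_at of SF3B1, 216977_x_at of SNRPA1 and 214789_x_at of SRSF8.

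Of the 19 sets that list a matching symbol beside others, none was 1.5-fold above or below both controls on sgIL1RN1~3. Among singly named sets at the minimum level 0.996% were above and 0.797% below. With calls that rare, their absence among 19 sets says little. No minimum level was applied to the 19, and several lay under it on every array.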
